A study of Mus musculus with 6 samples.

Results

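The branched-chain amino acid breakdown enzymes were examined in mouse oocytes matured with or without metformin. They comprise 10 genes, chosen by name as enzymes of leucine, isoleucine and valine breakdown and matched by symbol to the 55487 genes of the deposited table. Acyl-CoA dehydrogenases were left out of the set, and all 10 genes were found. RNA was sequenced from 3 control and 3 metformin libraries. The series title gives aged mice as the source, and the labels state neither age nor strain. Every group shared the same handling: mice were primed with pregnant mare serum gonadotropin (10 IU), and 46 to 48 h later fully grown germinal-vesicle oocytes were freed of cumulus cells and kept in M16 medium for 16 h, to the metaphase II stage. The control group had no metformin in the medium. The culture protocol lists 10, 20 and 50 μM, and which of these the metformin libraries received is not given, nor is the number of oocytes or animals in a library.

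Leucine, isoleucine and valine are broken down in mitochondria by a shared beginning and separate ends. A branched-chain aminotransferase first moves the amino group to 2-oxoglutarate. The branched-chain ketoacid dehydrogenase (BCKDH) complex then removes the carboxyl group, a step that cannot be reversed and that a dedicated kinase switches off by phosphorylating the E1 alpha subunit. Later enzymes carry the products to acetyl-CoA, acetoacetate and propionyl-CoA, which feed the tricarboxylic acid cycle. Oocytes meet most of their energy need by mitochondrial oxidation. Metformin is a biguanide reported to inhibit respiratory complex I and to activate the energy sensor AMPK, and neither effect was measured here.

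Libraries held between 8622281 and 10588292 counted reads, so that 3 reads, taken as the floor of detection, stood for 0.285 to 0.339 CPM (reads of a gene scaled to a common library size). The floor covers counting error only, because PCR copies were not marked. All 12 oocyte markers on a fixed list were tested, summing to 22938 to 24603 CPM in control libraries and 20379 to 25277 CPM in those with metformin. The 14 markers of cumulus and granulosa cells summed to 67.8 to 72.0 CPM without and 64.8 to 77.4 CPM with metformin. Most of that sum was Cyp19a1, with 318 to 489 reads in a library. Nr5a2, with 159 to 188 reads, and Kitl, with 78 to 109 reads, were also tested. Amh, Amhr2, Foxl2 and Ptx3 had 0 reads in every library, and the rest of the list had at most 16 in any library. Of the 8 markers of blood and immune cells, the haemoglobin genes set control replicate 1 apart: the list summed to 33.3 CPM there and to between 1.28 and 3.10 CPM in the other 5 libraries. The part of that library in the results below was measured by leaving it out. In bulk libraries such as these, fewer cells and less RNA per cell cannot be told apart.

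The enzymes ranged from well detected to barely detected, also between subunits of the same enzyme. Levels here stand for RNA captured by a poly(A)-primed kit, and tail length was not measured. Dbt and Bckdhb, which encode subunits of the BCKDH complex, and Hibadh and Bcat2 had at least 163 reads in every library. Bckdha, whose protein pairs with that of Bckdhb, and Mccc1 and Mccc2, the subunits of 1 carboxylase, had between 0 and 15 reads in any library. Between metformin and control, 0 of the 8 members that could be tested passed, where 0.0391% of the 12793 genes tested passed in all (edgeR's quasi-likelihood test, threshold of 0.05 after Benjamini-Hochberg adjustment). At an unadjusted p under 0.05 the count was also 0 of 8, against 1.5% of all genes, and DESeq2 called 0 members, against 0.0308% of its genes.

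**Figure D1:**
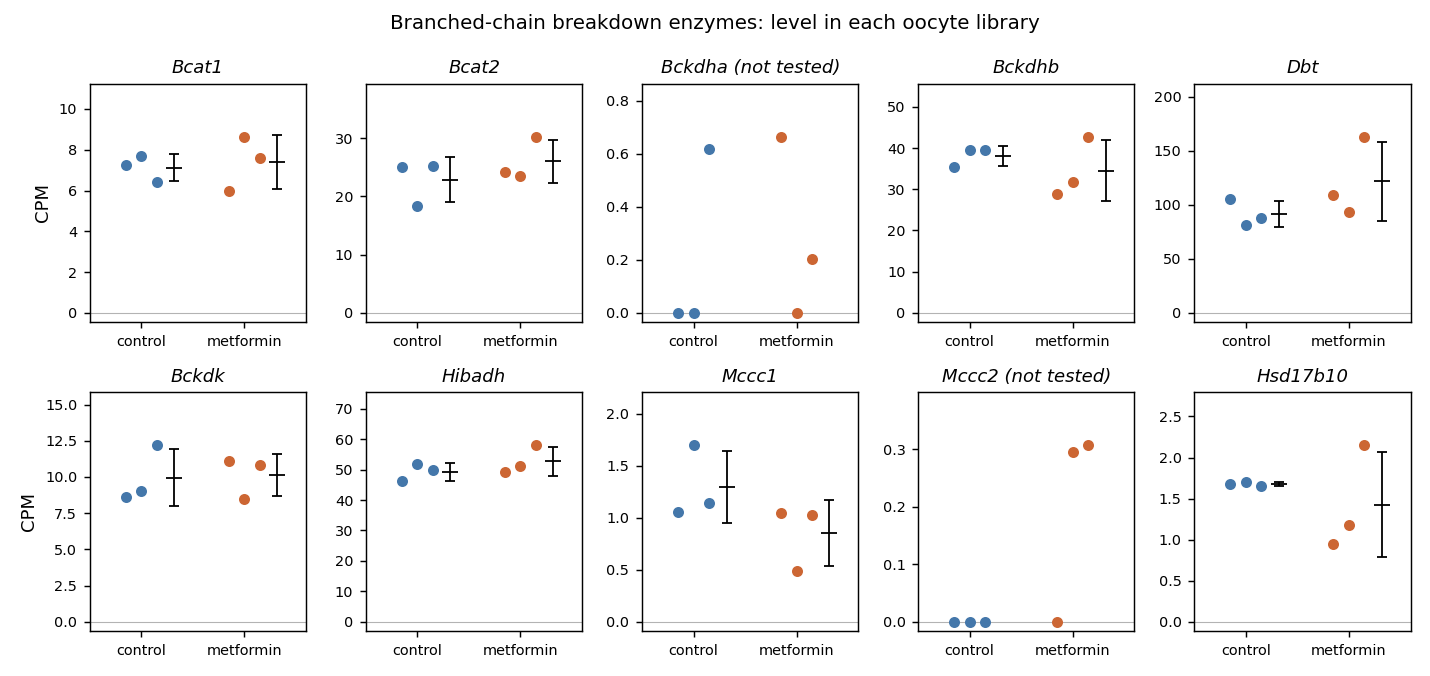
Level of each of the 10 enzymes in CPM (vertical axes, each from 0 with its own range) in the 3 control and 3 metformin libraries (points); the bar beside the points is the mean with its SD, left out for the pair of genes that were not tested. Control and metformin points overlap for every gene except Mccc1, where the highest metformin library (1.046 CPM) lies just under the lowest control library (1.051 CPM).

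Levels of different genes were compared per length, on the deposited FPKM scale. Over all 6 libraries Dbt stood highest at 27.9 ± 6.69 FPKM (SD, n = 6), followed by Bckdhb at 14.3 ± 1.63 FPKM. Hibadh at 4.60 ± 0.250 FPKM and Bcat2 at 4.42 ± 0.554 FPKM came next, and the ranges of this pair over the libraries overlapped. Bckdk followed at 1.61 ± 0.232 FPKM. Hsd17b10 at 0.772 ± 0.186 FPKM and Bcat1 at 0.645 ± 0.0846 FPKM also overlapped. Bckdha at 0.123 ± 0.159, Mccc1 at 0.0808 ± 0.0301 and Mccc2 at 0.0238 ± 0.0369 FPKM (SD, n = 6 for each) closed the order, each overlapping its neighbour. For the other neighbours in this order the ranges over the libraries did not overlap.

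The order of the members rested in part on the gene lengths behind the FPKM values. Those values imply lengths of 1989 to 13304 bases for the members, whereas the principal transcripts in GENCODE M21 are 962 to 3405 bases long. For every member the implied length also exceeded the union of GENCODE M21 exons, as with 2516 against 1805 bases for Bckdhb and 2020 against 1899 for Bckdha. The gene models used in counting may therefore differ from those behind the exon lengths and overlaps given here. Hibadh is the clearest case, with 11048 bases implied and a principal transcript of 1825 bases. Per kilobase of principal transcript, in counts scaled to library size, a scale chosen after the values were seen, Dbt stood at 32.1 ± 7.70, Hibadh at 27.9 ± 1.51 and Bckdhb at 24.5 ± 2.79 (SD, n = 6), and the ranges of neighbours in this trio overlapped. Bcat1 then stood above Hsd17b10, and Mccc1 above Bckdha with overlapping ranges. Bckdha, Mccc1 and Mccc2 remained the lowest members on this scale and with the union of annotated exons as the length.

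**Figure D2:**
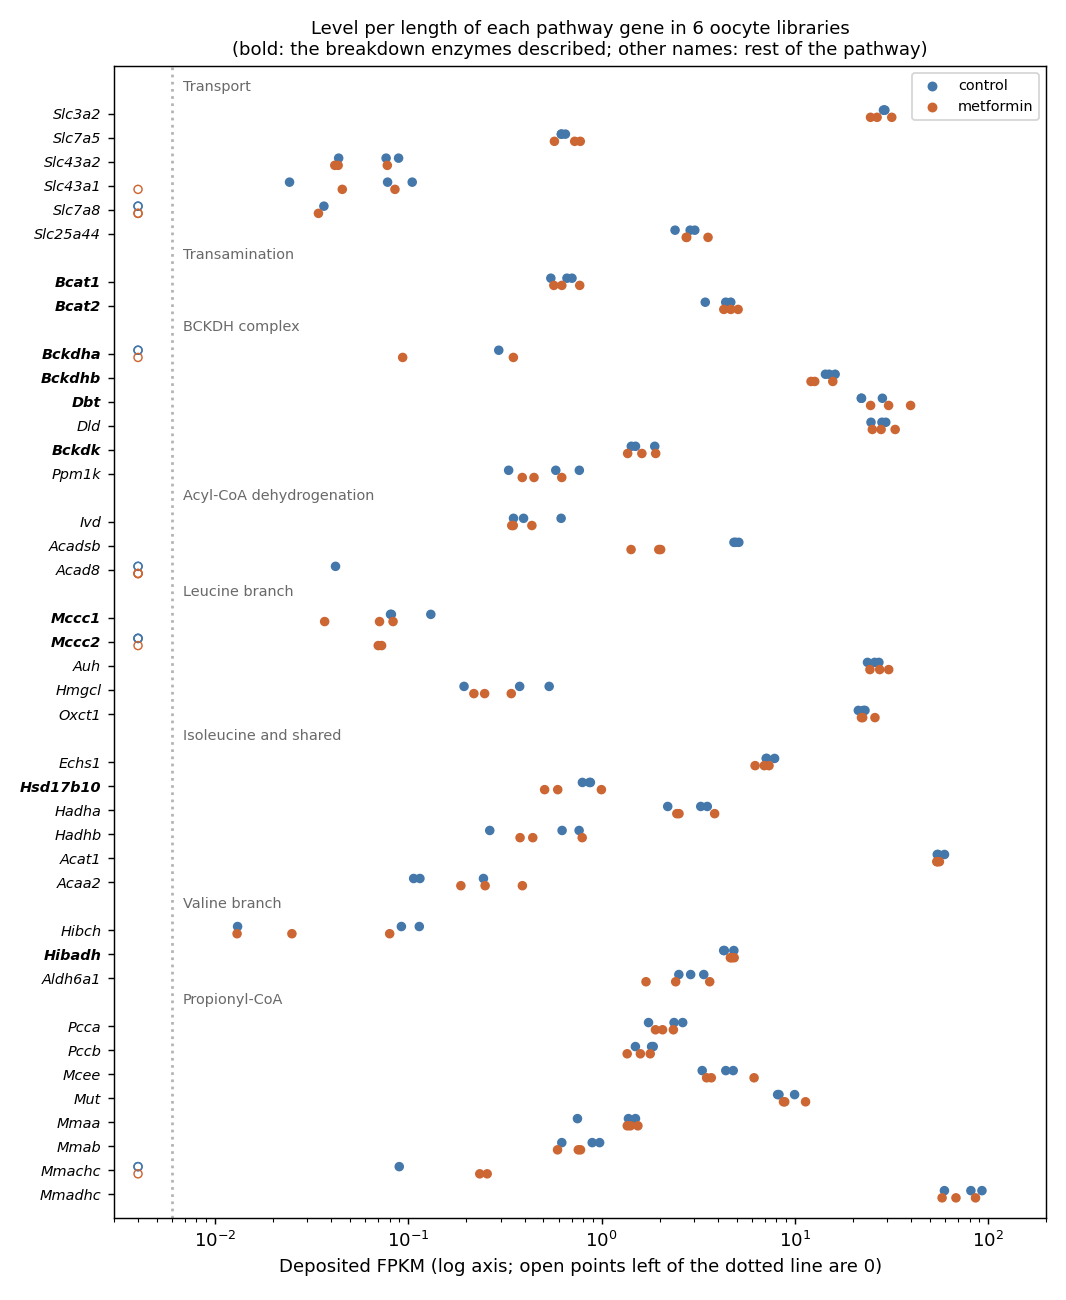
Deposited FPKM (horizontal log axis) of the 10 enzymes (bold) and other genes of the pathway, by step, in 3 control (blue) and 3 metformin (orange) libraries; open points mark libraries with 0 reads. High and low levels stand side by side, also within an enzyme, as with Bckdha at 0 to 0.350 FPKM and Bckdhb at 12.1 to 16.1 FPKM, and control and metformin points lie apart by more than their spread at Acadsb.

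The aminotransferases carry out the opening step, Bcat2 in mitochondria and Bcat1 in the cytosol. Bcat2 (ENSMUSG00000030826, GRCm38 chromosome 7, 45570153 to 45589711, plus strand) had 25.0, 18.4 and 25.2 CPM in control replicates 1 to 3, and 24.2, 23.6 and 30.3 CPM in metformin replicates 1 to 3. Control replicate 2 was the lowest and metformin replicate 3 the highest, and the other 4 libraries lay between 23.6 and 25.2 CPM. The log2 fold change of Bcat2 was 0.18 (SE 0.192, 95% interval -0.24 to 0.60, adjusted p = 1.00, edgeR). Of its annotated exon bases, 15.95% also lie in an antisense gene, 0610005C13Rik, which had 0 reads in every library.

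Bcat1 (ENSMUSG00000030268, chromosome 6, 144993835 to 145076184, minus strand) had 7.25, 7.69 and 6.41 CPM in control replicates 1 to 3, and 5.99, 8.64 and 7.57 CPM in metformin replicates 1 to 3. The metformin libraries took both the lowest and the highest place, and the log2 fold change was 0.06 (SE 0.228, 95% interval -0.44 to 0.56). In every library the mitochondrial form was the more abundant per length: the ratio of Bcat1 to Bcat2 in FPKM ran from 0.122 to 0.204, and from 0.172 to 0.289 per length of principal transcript. As a ratio within a library it does not depend on scaling between libraries. It differed between the groups by -0.14 on the log2 scale (exact permutation test, two-sided, p = 0.5; adjusted p = 0.667 over 4 ratios). With 3 libraries against 3, the exact permutation test cannot go below p = 0.1.

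The BCKDH complex is built on a core of E2 subunits, encoded by Dbt, that carry lipoate. To it bind E1, made of alpha and beta subunits encoded by Bckdha and Bckdhb, and E3, encoded by Dld and shared with the pyruvate and 2-oxoglutarate dehydrogenases. Dbt (ENSMUSG00000000340, chromosome 3, 116513070 to 116549981, plus strand) had 105, 81.6 and 87.7 CPM in control replicates 1 to 3, and 109, 93.5 and 163 CPM in metformin replicates 1 to 3. Metformin replicate 3 lay far above the other 5 libraries, and metformin replicate 2 lay below control replicate 1. The log2 fold change of Dbt was 0.41 (SE 0.204, 95% interval -0.03 to 0.86, unadjusted p = 0.0657, adjusted p = 1.00, edgeR). This was the smallest unadjusted p among the members. Without metformin replicate 3 the log2 fold change was 0.15.

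Bckdhb (ENSMUSG00000032263, chromosome 9, 83925145 to 84124240, plus strand) had 35.3, 39.6 and 39.5 CPM in control replicates 1 to 3, and 28.7, 31.8 and 42.8 CPM in metformin replicates 1 to 3. Metformin replicates 1 and 2 lay below all control libraries and metformin replicate 3 above them. The log2 fold change was -0.15 (SE 0.182, 95% interval -0.54 to 0.25). Dbt and Bckdhb therefore had fitted changes of opposite sign, and their ratio, chosen after the values were seen, was 1.97, 1.37 and 1.47 in control and 2.52, 1.95 and 2.53 in metformin libraries on the FPKM scale. The groups overlapped at the lowest metformin and the highest control library, with a log2 difference of 0.55 (exact permutation test, p = 0.2; adjusted p = 0.667 over 4 ratios). The ratio of Dbt to the E3 gene Dld, also chosen after the values were seen, differed by 0.31 (exact permutation test, p = 0.5; adjusted p = 0.667).

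Bckdha (ENSMUSG00000060376, chromosome 7, 25629946 to 25658981, minus strand) had 0, 0 and 6 reads in control and 7, 0 and 2 reads in metformin libraries, too few to be tested. Each group held a library with no read and 1 with at least 6. Summed over libraries, 15 reads stood against 2112 for Bckdhb, so that Bckdhb was 113-fold higher per length (exact 95% interval 68.4 to 202, counting error only). Dbt was 222-fold higher than Bckdha (exact 95% interval 135 to 397). These ratios rested on the few libraries with Bckdha reads. In control replicate 3 and metformin replicate 1, which held 6 and 7 of the 15 reads, Bckdhb was 51.1-fold and 34.6-fold higher, and Dbt 75.2-fold and 87.3-fold higher. Without metformin replicate 1 the summed ratio was 182 for Bckdhb and 340 for Dbt, and without control replicate 3 it was 154 for Bckdhb and 320 for Dbt.

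The counting of Bckdha is uncertain, because 61.66% of its 1899 annotated exon bases also lie in exons of B3gnt8, a glycosyltransferase gene on the opposite strand, and the library kit does not keep the strand. How reads in shared bases were assigned is not given in the sources used here. B3gnt8 itself had 4, 1 and 8 reads in control and 7, 6 and 5 reads in metformin libraries. If all reads from shared bases had been dropped, the 15 reads of Bckdha would come from the 728 bases outside B3gnt8. Per annotated exon base, the length scale used for this pair of values, Bckdhb was 148-fold higher with all bases of Bckdha and 56.8-fold higher with those 728 (exact 95% intervals 89.6 to 265 and 34.4 to 102). Dbt was 90.8-fold higher on the latter basis. The exon-base scale and the ratios without a library were chosen after the values were seen. Bckdhb and Dbt share no annotated exon base with another gene.

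**Figure D3:**
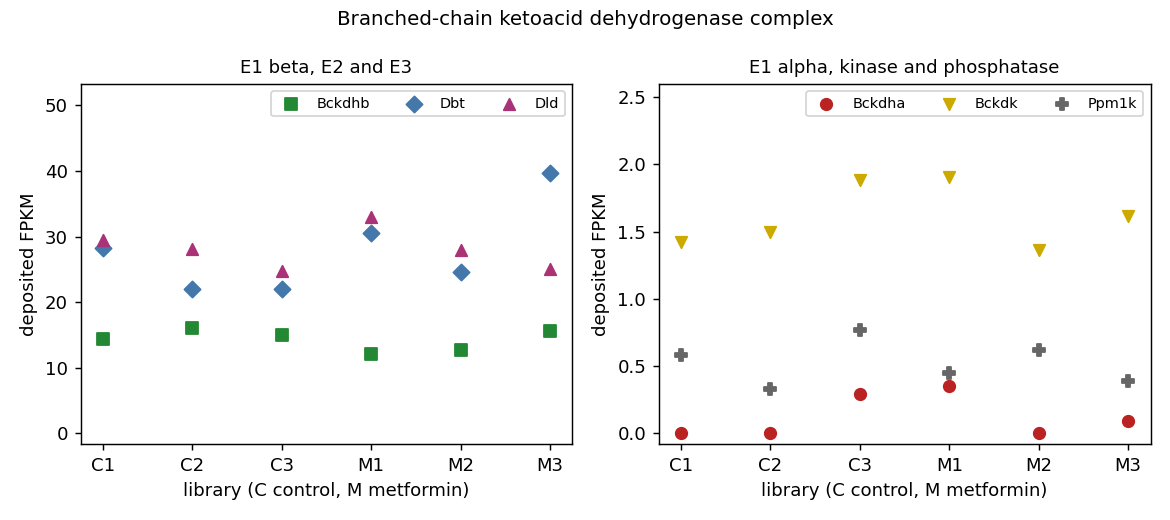
Deposited FPKM (vertical axes from 0, with different ranges) of the genes of the BCKDH complex and its regulators in control libraries C1 to C3 and metformin libraries M1 to M3. E1 beta, E2 and E3 lie between 12.1 and 39.6 FPKM and E1 alpha between 0 and 0.350 FPKM, with kinase above phosphatase in each library.

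Bckdk encodes the kinase that inactivates the complex. Bckdk (ENSMUSG00000030802, chromosome 7, 127904082 to 127910221, plus strand) had 8.62, 9.05 and 12.2 CPM in control replicates 1 to 3, and 11.1, 8.45 and 10.8 CPM in metformin replicates 1 to 3. The groups covered nearly the same range, and the log2 fold change was 0.03 (SE 0.223, 95% interval -0.46 to 0.51). The opposing phosphatase is encoded by Ppm1k, with a mean of 3.56 ± 1.51 CPM over the control libraries and 3.08 ± 0.732 CPM over the metformin libraries (SD, n = 3 each). Kinase transcripts exceeded phosphatase transcripts in every library, with a ratio of 2.19 to 4.53 in FPKM. Stretches of 200 to 236 bases of the Ppm1k transcript match transcripts of 45 other genes at 90% identity or more, so its 18 to 49 reads in a library are uncertain. That ratio differed between groups by 0.17 on the log2 scale (exact permutation test, p = 1, also after adjustment over 4 ratios). Mean levels of the E3 gene Dld were 115 ± 6.22 CPM without and 121 ± 8.71 CPM with metformin (SD, n = 3 each), with a log2 fold change of 0.07 (SE 0.133). Of the list of complex partners, Dld and Ppm1k, 0 of 2 passed.

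Methylcrotonyl-CoA carboxylase, the enzyme specific to leucine, needs an alpha subunit that carries biotin, encoded by Mccc1, and a beta subunit encoded by Mccc2. Mccc1 (ENSMUSG00000027709, chromosome 3, 35959312 to 36000678, minus strand) had 10, 15 and 11 reads in control and 11, 5 and 10 reads in metformin libraries. In CPM all control libraries lay above all metformin libraries, by a margin smaller than 1 read, and in the deposited FPKM the groups overlapped. Of the tested members this was 1 of 8, where 5.63% of all genes tested had no overlap. The log2 fold change of Mccc1 was -0.59 (SE 0.445, 95% interval -1.56 to 0.39, adjusted p = 1.00, edgeR). On the opposite strand, Mccc1os shares 1.81% of the Mccc1 exon bases, Gm15952 0.86% and the processed pseudogene B230207O21Rik 2.93%. Mccc1os had 1 to 11 reads in a library, so a small part of the few Mccc1 reads may belong to either strand.

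Mccc2 (ENSMUSG00000021646, chromosome 13, 99948530 to 100015639, minus strand) had 0 reads in all control libraries and 0, 3 and 3 reads in the metformin libraries, at or under the floor throughout. No fold change is given. The enzyme that follows this carboxylase, encoded by Auh, was abundant by contrast, with means of 329 ± 34.1 CPM without and 358 ± 64.8 CPM with metformin (SD, n = 3 each). AUH also binds RNA.

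The 250 bases ahead of a RefSeq start site are shown for Bckdhb and Mccc2, as an abundant member and the least detected one, to set their CpG content side by side. Bckdhb has a pair of RefSeq starts, and the window shown lies just ahead of the gene's GENCODE start. CpG dinucleotides (CG, the same on both strands) are in capitals, in GRCm38.p6 and read 5′ to 3′ on the gene's strand. The first is chr9:83924887-83925136 on the plus strand and the second chr13:100015640-100015889 on the minus strand.
Bckdhb: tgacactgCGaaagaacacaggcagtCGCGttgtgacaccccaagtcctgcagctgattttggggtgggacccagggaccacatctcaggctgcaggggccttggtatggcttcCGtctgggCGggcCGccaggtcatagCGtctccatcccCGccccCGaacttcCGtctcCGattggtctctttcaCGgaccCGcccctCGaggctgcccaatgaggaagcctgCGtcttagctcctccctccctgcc
Mccc2: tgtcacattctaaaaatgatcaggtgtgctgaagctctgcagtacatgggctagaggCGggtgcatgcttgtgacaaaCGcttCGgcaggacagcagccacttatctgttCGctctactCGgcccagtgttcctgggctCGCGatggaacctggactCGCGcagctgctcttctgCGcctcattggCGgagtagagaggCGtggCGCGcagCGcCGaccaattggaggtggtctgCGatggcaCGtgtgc
The Bckdhb window held 15 CG and the Mccc2 window 18, where the median of 32851 RefSeq promoters is 6 and 92.1% hold at least 1. At least 15 CG are found in 27.3% of promoters and at least 18 in 21.7%. RefSeq windows were matched for 9 of the 10 members, 12 windows in all, with between 1 and 20 CG. The window with 1 is that of the other Bckdhb start, inside the annotated gene. The window of Mccc1 held 2 and that of Hibadh 20, so the barely detected Mccc1 and Mccc2 lay far apart in this count.

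Hibadh encodes hydroxyisobutyrate dehydrogenase, an enzyme of valine breakdown. Hibadh (ENSMUSG00000029776, chromosome 6, 52546228 to 52640389, minus strand) had 46.2, 52.0 and 49.8 CPM in control replicates 1 to 3, and 49.1, 51.2 and 58.0 CPM in metformin replicates 1 to 3. These were the steadiest levels among the members, with 5 libraries between 46.2 and 52.0 CPM. The log2 fold change was 0.10 with the smallest SE of the members (SE 0.149, 95% interval -0.23 to 0.42). A processed pseudogene, Gm11225, matches its transcript at 91.7% over 855 bases and had 0 to 5 reads in a library. The enzyme just before it in the pathway, encoded by Hibch, had only 8, 6 and 1 reads in control and 6, 1 and 2 reads in metformin libraries. Its transcript also has a near copy, the processed pseudogene Gm7512, at 92.6% over 1124 bases, with 0 reads in every library. How reads that match both were counted is not given, so the level of Hibch is uncertain.

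Hsd17b10 encodes a mitochondrial dehydrogenase of isoleucine breakdown that is also a subunit of mitochondrial ribonuclease P. Hsd17b10 (ENSMUSG00000025260, chromosome X, 152001845 to 152004442, plus strand) had 16, 15 and 16 reads in control and 10, 12 and 21 reads in metformin libraries. Control libraries lay close together and the metformin libraries spread to both sides of them. The log2 fold change was -0.24 (SE 0.391, 95% interval -1.09 to 0.62), and at this depth a change of 2-fold lower was within the interval.

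As a group, 5 of the 8 tested members were fitted higher and 3 lower in metformin libraries, with a median log2 fold change of 0.04, beside 6715 higher, 6078 lower and a median of 0.01 over all genes tested. For the 6 members averaging above 7 CPM, Bcat1, Bcat2, Bckdhb, Dbt, Bckdk and Hibadh, the 95% intervals lay between -0.54 and 0.86 on the log2 scale. Those of Mccc1 and Hsd17b10 reached from -1.56 to 0.62. An adjusted p that misses the threshold does not show equal levels, and these intervals give the differences the libraries allow.

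**Figure D4:**
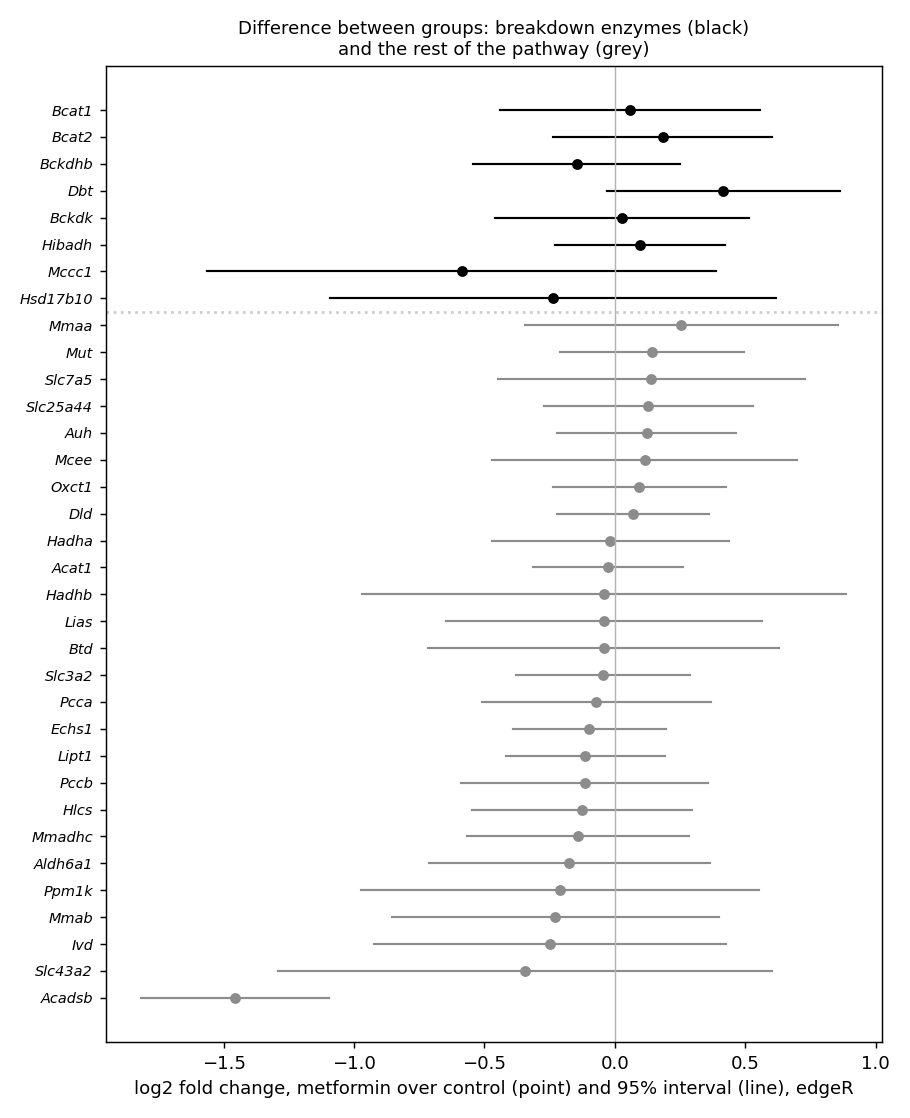
Log2 fold change of metformin over control (point) with its 95% interval (line) for the 8 tested enzymes (black) and 26 other tested genes of the pathway (grey), from edgeR. All intervals of the enzymes include 0, and among the other genes only that of Acadsb, at -1.46, does not.

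The rest of the pathway was described through fixed lists of 34 genes, chosen with earlier results of these data known. Of the 26 tested, 0 rose, 1 fell, 8 were fitted higher and 18 lower, with a median of -0.04. Over all 12793 genes tested, 3 rose, 2 fell, 6715 were fitted higher and 6078 lower, with a median of 0.01. The pathway gene that fell was Acadsb, the acyl-CoA dehydrogenase of isoleucine breakdown that acts directly after the BCKDH complex. It had 51.2, 54.2 and 55.9 CPM in control replicates 1 to 3, and 20.6, 21.4 and 16.7 CPM in metformin replicates 1 to 3, without overlap (log2 fold change -1.46, SE 0.165, adjusted p = 0.00568, edgeR). Over 261 bases, the Acadsb principal transcript of 6081 bases matches a transcript of Olfr393 at 90.8%. How reads that match both were counted is not given. Of the 3 acyl-CoA dehydrogenases listed, Ivd, of leucine breakdown, stood at 3.06 ± 0.909 and 2.56 ± 0.380 CPM, and Acad8, of valine breakdown, had 3 reads in control replicate 1 and 0 in the other libraries.

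Of 10 genes of later steps, 7 were tested and 0 passed, 2 fitted higher and 5 lower, with a median of -0.02. Echs1, a hydratase that acts before Hsd17b10 in isoleucine breakdown, was at -0.10 on the log2 scale (SE 0.134), and Auh at 0.12 (SE 0.156). The groups of Echs1 did not overlap in CPM, by 77.4 against 77.2, about 2 reads, and overlapped in the deposited FPKM. Of 8 genes that take propionyl-CoA to succinyl-CoA or supply its cobalamin, 7 were tested and 0 passed. Here the log2 fold change was 0.25 for Mmaa (SE 0.275) and 0.14 (SE 0.162) for Mut, which encodes methylmalonyl-CoA mutase.

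Of 6 genes of branched-chain amino acid transport, 4 were tested and 0 passed. Slc25a44, a mitochondrial carrier of these amino acids, stood at 19.2 ± 2.56 and 21.0 ± 2.14 CPM, and the plasma membrane transporter gene Slc43a2 at 1.25 ± 0.386 and 0.979 ± 0.306 CPM. Of 5 genes of biotin and lipoate supply, 4 were tested, all were fitted lower with a median of -0.08, and 0 passed. Lipt1, a lipoyltransferase gene, stood at 74.1 ± 2.85 and 68.5 ± 4.42 CPM, and Hlcs, which attaches biotin to carboxylases, at 13.5 ± 1.84 and 12.4 ± 0.797 CPM (control first, each a mean with its SD over 3 libraries). The groups of Lipt1 did not overlap in CPM, by 72.22 against 72.20, less than 1 read, and overlapped in the deposited FPKM. In CPM, groups did not overlap for 3 of 26 tested pathway genes, Acadsb, Echs1 and Lipt1, all lower with metformin, where 2.79% of all genes tested were lower without overlap. In the deposited FPKM this held for 1 of them, Acadsb.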

How the data were processed

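RNA was sequenced from 3 control and 3 metformin oocyte libraries. Per the labels' protocols, the library kit was SMART-Seq HT, a poly(A)-primed method that keeps neither strand nor molecular identifiers. CASAVA 1.8, TopHat2 2.0.6 and the mm10 build appear in the submitters' processing notes. For the counting program, its annotation and its treatment of shared reads, nothing is stated in the sources used here. Raw read counts and FPKM values per gene were deposited, per the file headers. Columns were matched to samples by initial and number, and 55141 of 55487 identifiers received a GENCODE M21 symbol (GRCm38, the assembly of mm10).

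Counts were tested with edgeR 4.0.16 (R 4.3.3; robust quasi-likelihood fit, TMM scaling, filterByExpr with 10 as its minimum count, no covariate, Benjamini-Hochberg over 12793 genes, threshold 0.05), and the code was tested on simulated counts. An SE is the log2 fold change divided by the root of the F statistic, and CPM values use TMM-scaled totals. Deposited FPKM values served to compare genes, untested except as ratios within a library. Planned ratios with Bckdha or Mccc2 could not be tested, because libraries with 0 reads give none. Near-identical copies were sought with transcripts matching at 90% or more over at least 200 bases. DESeq2 1.42.0, limma 3.58.1 (voom), other scalings, filters, a replicate block and leaving out each library were alternatives. The members and lists were chosen with earlier results of these data known. Named genes are all members, Dld, Ppm1k, Acadsb, and the 2 genes with the smallest p of each pathway list; Hibch, Acad8, Auh and B3gnt8 are set beside members for their place in the pathway or genome. The labels do not say whether samples came from separate animals, so the spread behind the p-values may be technical.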

Additional observations from a re-analysis of the deposited data

How the results depend on the processing

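The count of 0 tested members past the threshold held under all 14 alternatives, as did the 1 pathway gene, Acadsb (log2 fold change -1.53 to -1.35, adjusted p between 6.61e-11 and 0.0459). Over all genes the count went from 5 to 8 by DESeq2, and to between 5 and 12 without 1 library; the cause was not tested. Signs turned only when a library was left out: without 1 library Bcat1 ranged from -0.0701 to 0.189 (log2), Bckdk from -0.0708 to 0.200, Ppm1k from -0.485 to 0.132, Ivd from -0.418 to 0.00529, Auh from -0.0209 to 0.242 and Mmaa from -0.00435 to 0.480. Sizes also moved by over 1.5 times: without 1 library Dbt ranged from 0.148 to 0.574, Bckdhb from -0.333 to -0.0322, Bcat2 from 0.0490 to 0.259, Hibadh from 0.0231 to 0.146, Mccc1 from -0.765 to -0.315 and Hsd17b10 from -0.650 to -0.0154; the lowest values of Dbt, Bckdhb, Hibadh and Hsd17b10 were without metformin replicate 3, that of Bcat2 without control replicate 2 and that of Mccc1 without metformin replicate 1. Without control replicate 1, the library with haemoglobin reads, Dbt stood at 0.52 and Bckdhb at -0.20. Dbt had an unadjusted p under 0.05 in 4 alternatives (edgeR), 0.0317 with no filter on low counts, 0.0494 with the replicate block, 0.0496 without control replicate 1 and 0.0187 without metformin replicate 2, with an adjusted p of at least 0.997 throughout. Whether the shared replicate numbers pair the libraries was not settled. Same-numbered deviations from the group means correlated at 0.155, 0.0248 and 0.253 over 6660 genes. Each was the highest correlation of its metformin library, but control replicate 2 correlated better with metformin replicate 1 (0.0724). With the replicate block, 7 genes passed and 0 members, with Dbt at 0.38 (adjusted p = 1.00, edgeR). Depth limits Bckdha and Mccc2, which were at or under 7 reads in every library.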
